A study of Drosophila melanogaster with 6 samples.

Results

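The transcripts described here encode the RNA interference (RNAi) machinery of Drosophila melanogaster, measured in cells that had themselves been treated with double-stranded RNA. The set held 10 genes, chosen by gene symbol: Dcr-1, Dcr-2, AGO1, AGO2, r2d2, loqs, drosha, pasha, Fmr1 and armi. Of these, 7 had a probe set under their symbol, 1 each, among 10845 genes so named on the array. These were Dcr-2 (CG6493), r2d2 (CG7138), drosha (CG8730), pasha (CG1800), loqs (CG6866), Fmr1 (CG6203) and armi (CG11513). Dcr-1, AGO1 and AGO2 were not analysed here, so the Dicer of the microRNA branch and the Argonaute of each branch are missing from every statement below.

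The samples were 6 Affymetrix arrays of Kc-167 cells, a haemocyte-like embryonic line of Drosophila, and measured total RNA. In 3 of them the cells had received double-stranded RNA against Enigma (CG9006, symbol Egm), whose mitochondrial product resembles the acyl-CoA dehydrogenases. In the other 3, the control RNAi, it was directed against beta-lactamase, which is bacterial and has no target in the fly. Both groups received 20 µg of double-stranded RNA and were harvested after 5 days. No array of cells without double-stranded RNA was analysed here, so a response to double-stranded RNA that both groups share cannot be seen. All cells came from 1 line, and nothing in the labels says that replicates were separate cultures, so the spread behind each p-value is that between samples and may be technical.

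Levels are given as GCRMA values (log2), and each difference is the Enigma RNAi mean minus the control RNAi mean. A pair is the Enigma RNAi and the control RNAi array of 1 replicate number. Testing took the 6975 of 14010 probe sets that exceeded 4 on 3 or more arrays, and a call is a Benjamini-Hochberg adjusted p under 0.05 in limma over all of them. The block named below is the replicate number as a term of the limma fit. Enigma itself was 3.24, 3.51 and 4.21 after Enigma RNAi, against 6.00, 6.41 and 6.71 after control RNAi. Its difference of -2.72 was not called without the block (limma, adjusted p = 0.283) and was called with it (limma, adjusted p = 0.000118). A missing call without the block thus does not bound a change. Enigma RNAi arrays 1 and 2 lay under 4 for this gene, which limits what the size of its difference shows. Of 9 plasmatocyte markers with a probe set, 6 passed the filter: Hml, at 10.86 ± 0.37 after Enigma RNAi and 11.01 ± 0.44 after control RNAi (SD, n = 3), Pxn, Col4a1, vkg, srp and Pvr. The plasmatocyte markers crq, eater and NimC1 did not. Of 5 germline markers aub, bam and bgcn passed and vas and osk did not. Markers of other cell types passed as well: 2 of 3 of neurons (brp and elav), 2 of 4 of lamellocytes (cher and mys) and 1 of 4 of crystal cells (lz). Of fat body 0 of 3 passed, of muscle 0 of 2 and of ovarian soma 0 of 2. Just above the filter at 4, lz averaged 4.08 and elav 4.31 after Enigma RNAi, and 4.12 and 4.42 after control RNAi. The highest probe set of brp averaged 5.27 after Enigma RNAi and 5.24 after control RNAi. In the same order cher averaged 7.57 and 7.15, and mys 9.26 and 9.25. The eIF4A control transcript reports RNA quality, and its 3' minus its 5' signal was 1.67, 1.52 and 1.95 after Enigma RNAi and 1.49, 1.22 and 1.43 after control RNAi. For eIF4A every Enigma RNAi array thus lay above every control RNAi array. The same signal of actin averaged 0.82 ± 0.18 after Enigma RNAi and 0.65 ± 0.13 after control RNAi, and that of Gapdh 2.06 ± 0.02 after Enigma RNAi and 1.98 ± 0.12 after control RNAi (SD, n = 3), with overlapping groups for both. The part of RNA quality in the differences below was not tested.

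In flies, RNAi runs through a pair of branches that share a plan. In the small interfering RNA (siRNA) branch, Dicer-2 cuts long double-stranded RNA, R2D2 helps to load the product, and Argonaute 2 cleaves the target. In the microRNA branch, Drosha and its partner Pasha cut the primary transcript in the nucleus, Dicer-1 with Loquacious cuts the hairpin in the cytoplasm, and Argonaute 1 represses the target. Loquacious also has a form that works with Dicer-2. The RNA-binding proteins Fmr1 and Armitage have been linked to the silencing complexes, and Armitage is best known for its role in the PIWI-interacting RNA (piRNA) pathway of the gonad.

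Of the 7 genes, 6 passed the filter, each on 6 of 6 arrays, and 0 of the 6 were called, with or without the block. Over all tested probe sets limma called 0, which is 0%, with 297 (4.26%) at an unadjusted p under 0.05. With the block it called 44, or 0.631%. In that fit the limma adjusted p was 0.944 for Dcr-2, 0.693 for r2d2, 0.627 for drosha, 0.619 for pasha and 0.529 for armi. For Fmr1 it was 0.175. The differences of the 6 genes ran from -0.36 for Fmr1 to 0.14 for r2d2, with a median of -0.06, beside a median of -0.03 over 5757 tested genes. A difference smaller than 0.25 in either direction was seen for 83.3% of the 6, and for 79.2% of all tested genes. Under quantile normalization or cyclic loess 3 of the 6 were higher and 3 lower, against 2 higher and 4 lower as deposited. With 1 array left out, the median of the 6 ran from -0.09 without Enigma array 3 to -0.02 without Enigma array 2.

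**Figure D1:**
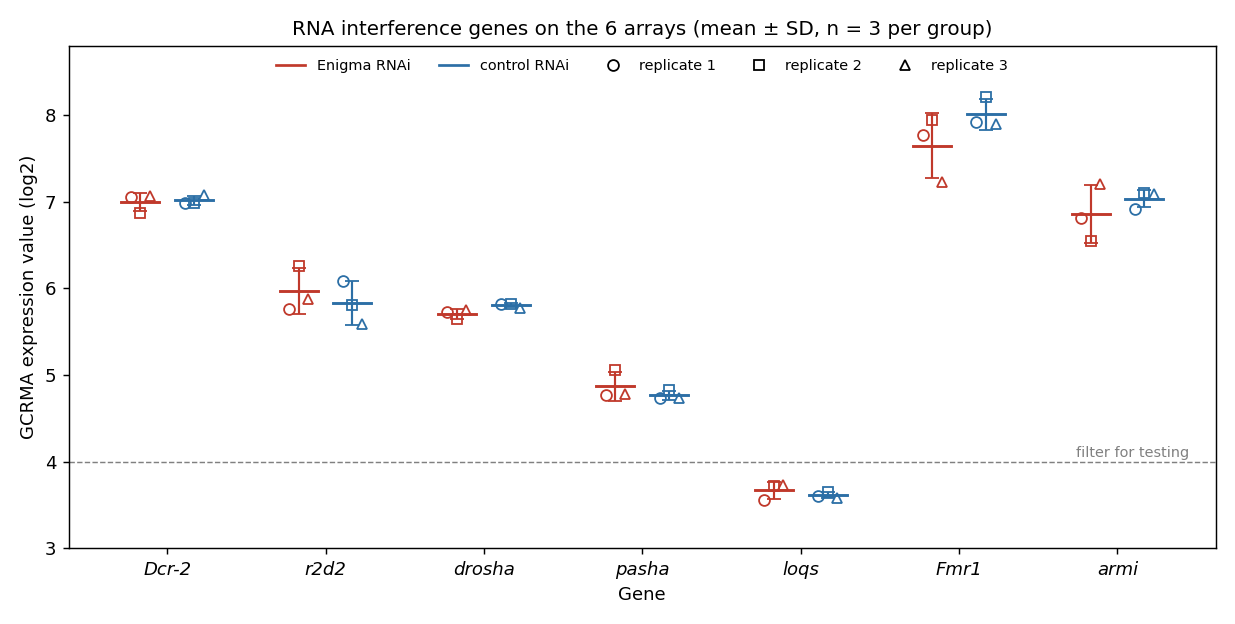
GCRMA expression values (log2) of the 7 genes with a probe set, by group. Points are arrays with a symbol for each replicate number, horizontal lines are means and bars are SD (n = 3 per group). The groups overlap for every gene but drosha, and loqs lies under the dashed filter at 4 on all 6 arrays.

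Dcr-2 encodes the Dicer that processes long double-stranded RNA into siRNAs, the enzyme on which the treatment of both groups relies. Its values were 7.06, 6.87 and 7.07 after Enigma RNAi, against 6.99, 6.99 and 7.08 after control RNAi. The groups overlapped, with array 2 of Enigma RNAi the lowest and array 3 of control RNAi the highest. The difference was -0.02 ± 0.11 (SE), with a 95% confidence interval of -0.27 to 0.23 (limma, adjusted p = 0.999). The interval of Dcr-2 thus reached at most 1.21-fold in either direction, or 1.18-fold with the block. It covers only the spread between these arrays, which may be technical. Of all tested probe sets, 10.6% had a smaller difference and 10.8% a smaller residual SD.

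The transcript of r2d2, whose protein binds double-stranded RNA and works with Dicer-2 in loading, varied more. It stood at 5.76, 6.26 and 5.88 in the Enigma RNAi arrays and at 6.09, 5.81 and 5.58 in the control RNAi arrays. The groups overlapped, and the replicate numbers fell in different orders in the groups: control array 1 was the highest of its group and Enigma array 1 the lowest of its own. The pairs accordingly differed in direction, at -0.33, 0.46 and 0.29. The mean difference was 0.14 ± 0.19 (SE; limma, adjusted p = 0.999), with a 95% confidence interval of -0.31 to 0.59. Without Enigma array 2 the difference was -0.01 and without control array 3 it was 0.02.

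For the nuclear step of the microRNA branch, drosha, the RNase III that cuts primary microRNA transcripts, was 5.73, 5.64 and 5.75 after Enigma RNAi and 5.82, 5.82 and 5.78 after control RNAi. All 3 Enigma RNAi arrays lay below all 3 control arrays. Groups did not overlap with Enigma RNAi lower for 6.16% of all tested probe sets, and this was 1 of the 6 genes. The gap was small, with a difference of -0.10 ± 0.10 (SE; limma, adjusted p = 0.999) and a 95% confidence interval of -0.33 to 0.13. An exact permutation test (two-sided) gave 0.1, the lowest p possible with 3 arrays a group. Any groups of that size without overlap give this p, so it adds nothing to the separation. The residual SD of drosha was 0.04, with 1.48% of tested probe sets below it, so the separation rested on a narrow spread within each group. With the scaling changed, the difference was -0.05 under quantile normalization and -0.07 under cyclic loess.

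Its partner pasha, which recognises the hairpin for Drosha, was 4.77, 5.06 and 4.78 after Enigma RNAi, against 4.73, 4.82 and 4.74 after control RNAi. Array 2 was the highest of each group, and the groups overlapped. Every pair was higher after Enigma RNAi, at 0.03, 0.23 and 0.05, as in 15% of all tested probe sets, and pasha was 1 of the 6 genes to do so. The difference of 0.10 ± 0.12 (SE; limma, adjusted p = 0.999) was 0.01 without Enigma array 2. The proteins of drosha and pasha form 1 complex, while their transcripts had mean differences of opposite sign, neither of them called.

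The probe set of loqs, which encodes the partner of Dicer-1, lay below the filter on all 6 arrays and was left out of the main test. Its values were 3.56, 3.72 and 3.73 after Enigma RNAi and 3.61, 3.65 and 3.58 after control RNAi. This range, 0.17 in all, is under the filter, so the order of the values was not read as a difference between the groups. With no filter, the difference of loqs was 0.05 ± 0.07 (SE; limma, adjusted p = 0.9996). A value under the filter does not show that the cells lacked the transcript.

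Set branch against branch, the siRNA genes measured, Dcr-2 and r2d2, had a mean difference of 0.06, and the tested microRNA genes, drosha and pasha, one of 0.0031. The branch difference was 0.06, and it was -0.10, 0.14 and 0.13 in pairs 1, 2 and 3, with an SD of 0.14 over the pairs. The pairs thus spread over more than the mean and did not share a direction. Across settings that left out 1 array the branch difference lay between 0.03 and 0.12. With 2 genes a branch, and without AGO2, AGO1 and Dcr-1, this compares a small part of each branch and was not put to a test.

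Among the RNA-binding proteins, Fmr1, the fly counterpart of the fragile X protein and a regulator of translation, had the largest difference of the set. It was 7.77, 7.95 and 7.22 in Enigma RNAi cells, against 7.92, 8.21 and 7.90 in control RNAi cells. Enigma array 3 stood lowest, while Enigma array 2 lay within the control range, so that the groups overlapped. All 3 pairs were lower, at -0.14, -0.26 and -0.68, a pattern found in 25.2% of tested probe sets. The gene was not called, so a change is not established. If Fmr1 was lower, fewer transcripts per cell and fewer expressing cells cannot be told apart. The difference was -0.36 ± 0.21 (SE; limma, adjusted p = 0.999), with a 95% confidence interval of -0.86 to 0.14. With the block its SE was 0.12 and its unadjusted p 0.0200, as 19.3% of tested probe sets had a p under 0.05 in that fit, and its adjusted p was 0.175. Of all tested probe sets 89.7% had a smaller difference, and without Enigma array 3 the difference of Fmr1 was -0.15. The 3' minus 5' signal of eIF4A differed by 0.18, 0.30 and 0.52 in pairs 1, 2 and 3, that of actin by 0.01, 0.24 and 0.25 and that of Gapdh by -0.06, 0.14 and 0.13, and their part in the Fmr1 values was not tested.

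The helicase gene armi was 6.82, 6.54 and 7.21 after Enigma RNAi, against 6.92, 7.10 and 7.09 after control RNAi. The control arrays lay within the span of the Enigma RNAi arrays, whose array 2 was the lowest and array 3 the highest of the 6. The pairs were -0.10, -0.56 and 0.12, for a mean difference of -0.18 ± 0.18 (SE; limma, adjusted p = 0.999). The 95% confidence interval ran from -0.61 to 0.25, and without Enigma array 2 the difference was -0.03.

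**Figure D2:**
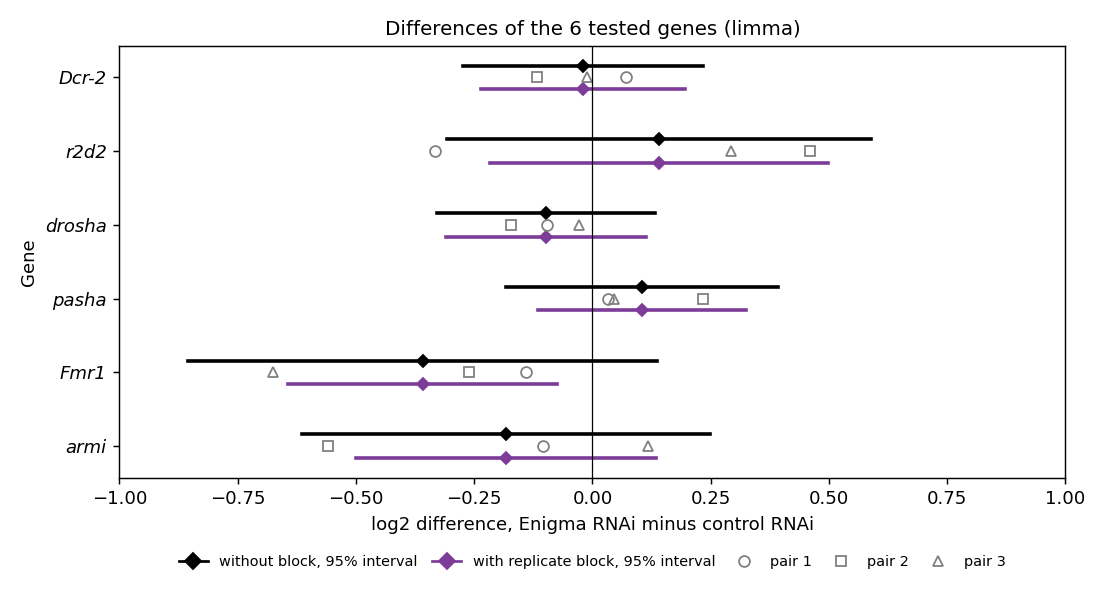
Differences (log2, Enigma RNAi minus control RNAi) of the 6 tested genes. Diamonds and lines are limma estimates with 95% confidence intervals, in black without and in purple with the replicate block, and open symbols are the 3 pairs. Only the blocked interval of Fmr1 leaves out 0, at -0.64 to -0.07, and its adjusted p was 0.175.

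The range over the 6 arrays ran from 0.18 for drosha to 0.99 for Fmr1 among the tested genes, with 0.20 for Dcr-2, 0.33 for pasha, 0.66 for armi and 0.68 for r2d2. For each tested gene the nearest profile was sought among 5756 other genes, as the smallest root mean square distance of mean-centred log2 values over 6 arrays, a description with 6 points from 2 groups. The nearest gene was Marf for Dcr-2, at 0.03, Lrch for r2d2, at 0.08, Scsalpha1 for drosha, at 0.01, dikar for pasha, at 0.02, CycY for Fmr1, at 0.11, and LSm1 for armi, at 0.05. In the same order, the SD of these 6 genes over the arrays was 0.08, 0.24, 0.07, 0.12, 0.33 and 0.24. Such a search always returns a nearest gene, and the distances of genes with unlike SD are not on 1 scale.

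Further genes of small RNA pathways were read from 4 lists, of which 54 genes were tested, 18 higher and 36 lower after Enigma RNAi, with 0 called with or without the block. The median of the 54 was -0.06, beside a median of -0.03 and 57.8% lower over all tested genes. The cofactors of siRNAs and of the RNA-induced silencing complex (RISC) held chaperones that help to load Argonaute, the cap-binding complex and RNA-modifying enzymes. Of 17 tested, 8 were higher and 9 lower, with a median of -0.04 that was 0.0050 under cyclic loess and 0.02 without control array 2. Cbp20, the small subunit of the nuclear cap-binding complex, was 7.04, 6.86 and 7.05 after Enigma RNAi, against 7.38, 7.23 and 7.36 after control RNAi. Its groups did not overlap, and its pairs were -0.33, -0.37 and -0.31. Among the 17 cofactors 2 had all Enigma RNAi arrays below all control arrays, Cbp20 and Cbp80, beside 6.16% of all tested probe sets. In 1 they lay above, beside 2.81%: the cochaperone gene Stip1, at 0.25, named after its value was seen.

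The difference of Cbp20 was -0.34 ± 0.11 (SE; limma, adjusted p = 0.999, and adjusted p = 0.106 with the block), so it was not called. Ars2, which works with the cap-binding complex in microRNA and siRNA processing, differed by -0.31 ± 0.15 (SE), while its other probe set differed by -0.02. The first was lower in 3 of 3 pairs, as were 25.2% of all tested probe sets. Cbp80, the large subunit, differed by -0.05, and is named after its value was seen. The cochaperones p23 and Droj2 differed by -0.33 and 0.25. All had an adjusted p of 0.999 in limma without the block.

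The effectors downstream of the microRNA complex, which shorten the poly(A) tail and remove the cap, were 7 higher and 7 lower of 14 tested, with a median of -0.01 that was 0.03 under quantile normalization or cyclic loess and -0.13 without control array 2. PAN2, a deadenylase subunit, had the largest difference of all 4 lists. It was 7.27, 6.39 and 7.33 after Enigma RNAi, against 7.61, 7.18 and 7.93 after control RNAi, with overlapping groups and array 2 the lowest of each. The difference was -0.58 ± 0.30 (SE), and its adjusted p was 0.999 in limma and 0.0613 with the block. The helicase gene me31B, a component of P bodies, differed by -0.42 (limma, adjusted p = 0.999, and adjusted p = 0.111 with the block). Both PAN2 and me31B were lower in 3 of 3 pairs, as were 25.2% of all tested probe sets. The decapping enhancer gene Edc3 differed by -0.29, and the deadenylase gene Pop2 by 0.25, with -0.03 on its other probe set.

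The piRNA pathway, which silences transposons in the gonad, had 24 of 27 listed genes on the array and 18 tested. Of the 18, 16 were lower and 2 higher after Enigma RNAi, with a median of -0.10, beside 57.8% lower and a median of -0.03 over all tested genes. The count varied with the array left out: it was 10 lower of 18 without control array 3 and 12 without Enigma array 2, where the median was -0.02. Without Enigma array 1 it was 14, and without any other single array it was 16. Under quantile normalization 15 were lower, beside 51.1% of all tested genes, and under cyclic loess 17, beside 54.2%. As deposited, the median of the 18 was 0.0039, -0.18 and -0.13 in pairs 1, 2 and 3. Over all tested genes it was 0.0029, -0.03 and -0.05. Of the 18, 6 (33.3%) were lower in all 3 pairs, beside 24.9% of all tested genes, and 0 were higher in all 3, beside 15.1%. The 4 largest differences were those of the Tudor domain gene tej at -0.37, Gasz at -0.26, the arginine methyltransferase gene csul at -0.23 and its partner vls at -0.19. The tej values were 5.27, 4.08 and 4.95 after Enigma RNAi, against 5.57, 4.65 and 5.20 after control RNAi, with overlapping groups. All 3 pairs of tej were lower, and its adjusted p was 0.999 in limma and 0.112 with the block.

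Which piRNA genes passed the filter was uneven. The following were chosen after their values were seen. The PIWI-clade Argonaute gene aub averaged 7.94 ± 0.14 after Enigma RNAi and 8.01 ± 0.36 after control RNAi (SD, n = 3), and the helicase gene spn-E averaged 6.97 ± 0.25 after Enigma RNAi and 7.05 ± 0.02 after control RNAi (SD, n = 3). Both were above the filter on 6 of 6 arrays, as was armi. The probe sets of piwi, vas, krimp and qin lay below it on 6 of 6. Among them vas stood at 3.15 ± 0.14 after Enigma RNAi and 3.12 ± 0.09 after control RNAi. Of the germline markers, vas and osk did not pass the filter, while aub, bam and bgcn did.

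Genes that have been linked to the uptake of double-stranded RNA into fly cells gave 5 tested of 9 listed. Of the 5, 1 was higher and 4 lower, beside 57.8% lower over all tested genes. Their median was -0.10, and it was 0.04 without Enigma array 2 and -0.22 without control array 2. The scavenger receptor genes Sr-CI and eater did not pass the filter. The proton pump subunit gene Vha16-1 differed by -0.38 (limma, adjusted p = 0.999, and adjusted p = 0.147 with the block), and by -0.11 on its other probe set. The first was lower in 3 of 3 pairs, as were 25.2% of all tested probe sets. VhaSFD, of the same pump, differed by -0.12, the vesicle trafficking gene lt by 0.11 and the Golgi complex gene Cog2 by -0.10.

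**Figure D3:**
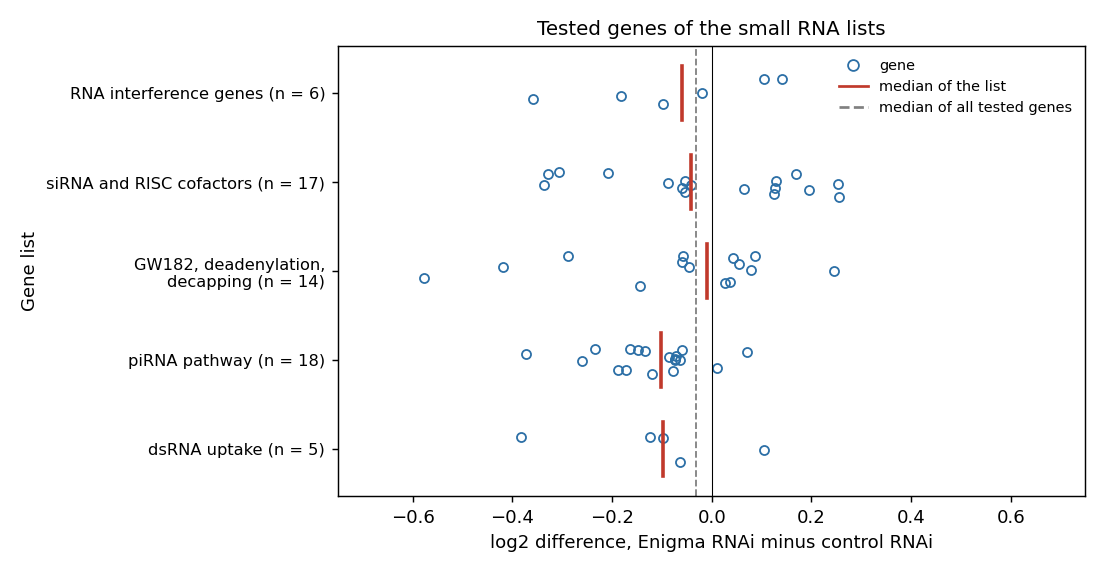
Differences (log2, Enigma RNAi minus control RNAi) of the tested genes in each list, 1 probe set a gene. Circles are genes, red lines the list medians and the dashed line the median of all tested genes, -0.03. The lists spread on both sides of 0, with 16 of 18 piRNA genes below it and PAN2 lowest at -0.58.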

How the data were processed

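RNA of 6 arrays was analysed from 1 table of deposited values, made by the authors with GCRMA, per the submitters' processing notes, its version not given in the sources used here. No label states the scale; the deposited values, -0.32 to 14.30, were taken as log2 because GCRMA writes log2. GCRMA corrects background and normalizes between arrays before summarising probe sets, so dim probe sets such as that of loqs are compressed. Precision is limited by having 3 arrays a group. Tests omitted 44 Affymetrix control probe sets.

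Probe sets were named through GEO's platform annotation, which gave 1 gene for 12444, several for 327 and none here for 1239. Only probe sets with 1 gene were named, and for lists the probe set with the highest mean stood for a gene. Of the listed names, 5 were updated to current symbols through RefSeq's gene table. Groups and replicate numbers came from the sample titles.

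The main test was limma 3.58.1 (lmFit, then eBayes; two-sided; no block) under R 4.3.3. The scripts were tested on simulated data. Same-numbered arrays deviated together (r = 0.80, 0.64 and 0.65 across tested probe sets), a pairing read from these values and the titles. The genes and lists were chosen with earlier results of these data known. Genes named from the lists were up to 4 with the largest difference where none was called, and others are marked. Alternatives were other scalings, filters, blocks, array weights, a floor at 4 and leaving out arrays.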

Additional observations from a re-analysis of the deposited data

How the results depend on the processing

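Over 109 values of the 7 genes under alternative settings, 100 of them tested, 0 passed the threshold in limma, and the smallest adjusted p was 0.0522, for Fmr1 with the replicate block and without replicate 1. The sign of Dcr-2 turned under quantile normalization (0.044), cyclic loess (0.026) and array weights (0.021), and the cause was not tested. With 1 array left out, differences ranged from -0.053 to 0.043 for Dcr-2, -0.0083 to 0.27 for r2d2, -0.12 to -0.067 for drosha, 0.0095 to 0.16 for pasha, -0.51 to -0.15 for Fmr1 and -0.36 to -0.026 for armi. With 1 replicate number left out and the replicate block, they ranged from -0.064 to 0.029 for Dcr-2, -0.019 to 0.38 for r2d2 and -0.33 to 0.0067 for armi. Under the same settings drosha (-0.13 to -0.062), pasha (0.040 to 0.14) and Fmr1 (-0.47 to -0.20) kept their sign. The number of probe sets called among all tested was 0 in limma without a block, 44 with the replicate block, 3 with that number as a random effect, and with the replicate block 586, 2 and 8 without replicates 1, 2 and 3, where few residual degrees of freedom remain. The replicate block changed no call among the 7 genes or the 4 lists. Array weights gave -0.60 for Fmr1 and -0.01 for armi. Probe sets under the filter, as that of loqs, limit what their values show.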
